A study of Mus musculus with 14 samples.

Results

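The microglial identity genes described here are P2ry12, P2ry13, Tmem119, Sall1, Siglech, Gpr34, Cx3cr1, Fcrls and Slc2a5. They were taken as a named list of genes used to recognise microglia, and all 9 were found by symbol among the 28316 symbols of the retina matrices and the 26528 of the brain matrices. Their unique molecular identifiers (UMIs, each standing for 1 captured RNA molecule) were counted in 720 retinal nuclei labelled Immune_cells, in 140 brain nuclei labelled microglia, and in every other label. A level is given as CPM, the UMIs of a gene per 1000000 UMIs of the same nuclei, and a share is the percent of nuclei with at least 1 UMI of the gene.

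Single-nucleus RNA sequencing was run on mouse retinas and on enriched brain vascular fragments after the TGF-beta receptor gene Tgfbr1 was deleted in endothelial cells. The retina gave 12 libraries, 1 control and 11 conditional knockouts (CKO), and the brain gave 1 library of each. The CKO mice were Cdh5CreER;Tgfbr1CKO/-, with a floxed allele beside a null allele, and received 4-hydroxytamoxifen (4HT) from postnatal day 3 to day 5. The paper dates retinas and brains to postnatal day 14, while the series text speaks of young adult mice.

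Cdh5CreER is expressed by vascular endothelial cells, so in the CKO mice microglia carried 1 null allele of Tgfbr1 and were not the intended target of the recombinase. The control mice are labelled as wild type. Where the paper counts vessel lesions, it gives its controls as typically Cdh5CreER;Tgfbr1CKO/+ or Cdh5CreER;Tgfbr2CKO/+, so the sequenced controls may carry Cre and a floxed allele too; their own alleles, and whether they received 4HT, are not stated. Each brain library pooled 2 brains, and for the retina the sources do not give how many mice a library stands for. With 1 control library in each tissue, mouse and genotype cannot be told apart on the control side, and in the brain on both sides.

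Microglia are the resident macrophages of the brain and retina. They share many surface proteins with other macrophages, and a small set of genes, kept active in part by TGF-beta signaling within microglia, is used to tell them apart. Several of these genes are known to be switched down when microglia respond to injury or inflammation.

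The retina libraries held 77676 nuclei and the brain libraries 31324, and 10 and 2 cell barcodes, respectively, occurred in more than 1 library of a tissue. The control retina gave 11513 nuclei, 30989702 UMIs in all and 1595 UMIs in the median nucleus. The CKO retinas ranged from 104 nuclei and 90449 UMIs to 18862 nuclei and 55803724 UMIs, with a median of 4210 nuclei. CKO replicate 4 stood apart: it is the library with 104 nuclei, 65 of them labelled Immune_cells, and the methods say that manual curation took out clusters with several nuclei of it or of CKO replicate 5. Where it sets an extreme, most values are therefore also given without it.

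The deposited tables put the control and CKO replicates 1, 2 and 3 in batch 1, CKO replicates 4 and 5 in batch 2 and CKO replicates 6 to 11 in batch 3. The chemistry was the version 4 PLUS kit except in CKO replicates 8 to 11, which used version 5 and a smaller load of nuclei (20000 against 40000).

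Tgfbr1 UMIs were present in every sample. In the brain, endothelial nuclei (label ECs) had 69.1 CPM of Tgfbr1 in the control (95% interval 62.5 to 76.2), beside 62.9 in the CKO (57.1 to 69.1). Brain nuclei labelled microglia had 2865 CPM in the control from 229 UMIs (2506 to 3261) and 683 CPM in the CKO from 10 UMIs (328 to 1256). The CKO had 11 such nuclei, and 515 of 989 genes tested in them (52.1%) had a CKO over control ratio below 0.5, with a median ratio of 0.455. In immune-labelled retinal nuclei the control had 943 CPM, and the CKO libraries had 482 at the lowest, 748 at the median and 988 at the highest. Whole retina libraries had 89.0 CPM in the control and 71.4, 79.4 and 365 at the lowest, median and highest CKO, the last from 33 UMIs in replicate 4; the other 10 lay below the control, up to 87.05. Counts taken over the whole gene include RNA outside the deleted exons, so these levels do not test the deletion. Whether a counted molecule came from the deleted exons was not analysed here.

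The label Immune_cells was checked against marker genes. In the control, 24 of 25 other microglia genes had UMIs under the label, with a summed level of 5984 CPM against 212 CPM over all other retinal labels. The 12 pan-immune genes summed to 2175 CPM in the control and 2664 CPM in the pooled CKO, against 22.9 CPM in the other labels. The same nuclei also held RNA of retinal neurons: rod genes summed to 4123 CPM in the control and 4287 CPM in the CKO, and bipolar genes to 5224 CPM in the control and 1835 CPM in the CKO.

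To separate these nuclei, the 720 were clustered without the 9 members. The clusters led by rod, bipolar and amacrine genes are called retinal-gene clusters. They held 15 of the 29 immune-labelled control nuclei and 84.0% of the control UMIs under the label, against 8.76% to 77.9% in the CKO libraries (median 65.0%). All 14 other control nuclei, with 18320 UMIs, fell into cluster 0, where 22 of the 25 other microglia genes were raised. It is called the microglia-like cluster. Retinal-gene clusters thus took a larger share of the label's UMIs in the control than in any CKO library, and levels are also given outside the retinal-gene clusters.

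Most members were concentrated in the immune-labelled retinal nuclei, with wide differences in degree. Siglech, a sialic acid-binding receptor, had 82.0% of its retinal UMIs there (interval 76.3 to 86.9), and Fcrls, an Fc receptor-like protein, had 74.7%. Gpr34, a receptor for lysophosphatidylserine, had 68.7%, Tmem119 66.0% and the transcription factor Sall1 54.6%. P2ry13 had 46.8% and P2ry12 33.3%, so most P2ry12 UMIs of the retina lay in nuclei with other labels. Cx3cr1, the receptor for the neuronal chemokine fractalkine, had 23.5%. Slc2a5, which encodes the fructose transporter GLUT5, had 5.00%.

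As levels, the members summed to 691 CPM under the label and to 12.4 CPM in the other retinal labels, a ratio of 55.7 (52.6 to 59.0). The ratio was 436 for Siglech, 283 for Fcrls, 209 for Gpr34 and 5.03 for Slc2a5 (1.81 to 11.3). These ratios describe the label and are no test, since the authors' cell types rest on clusters of the same counts.

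**Figure D1:**
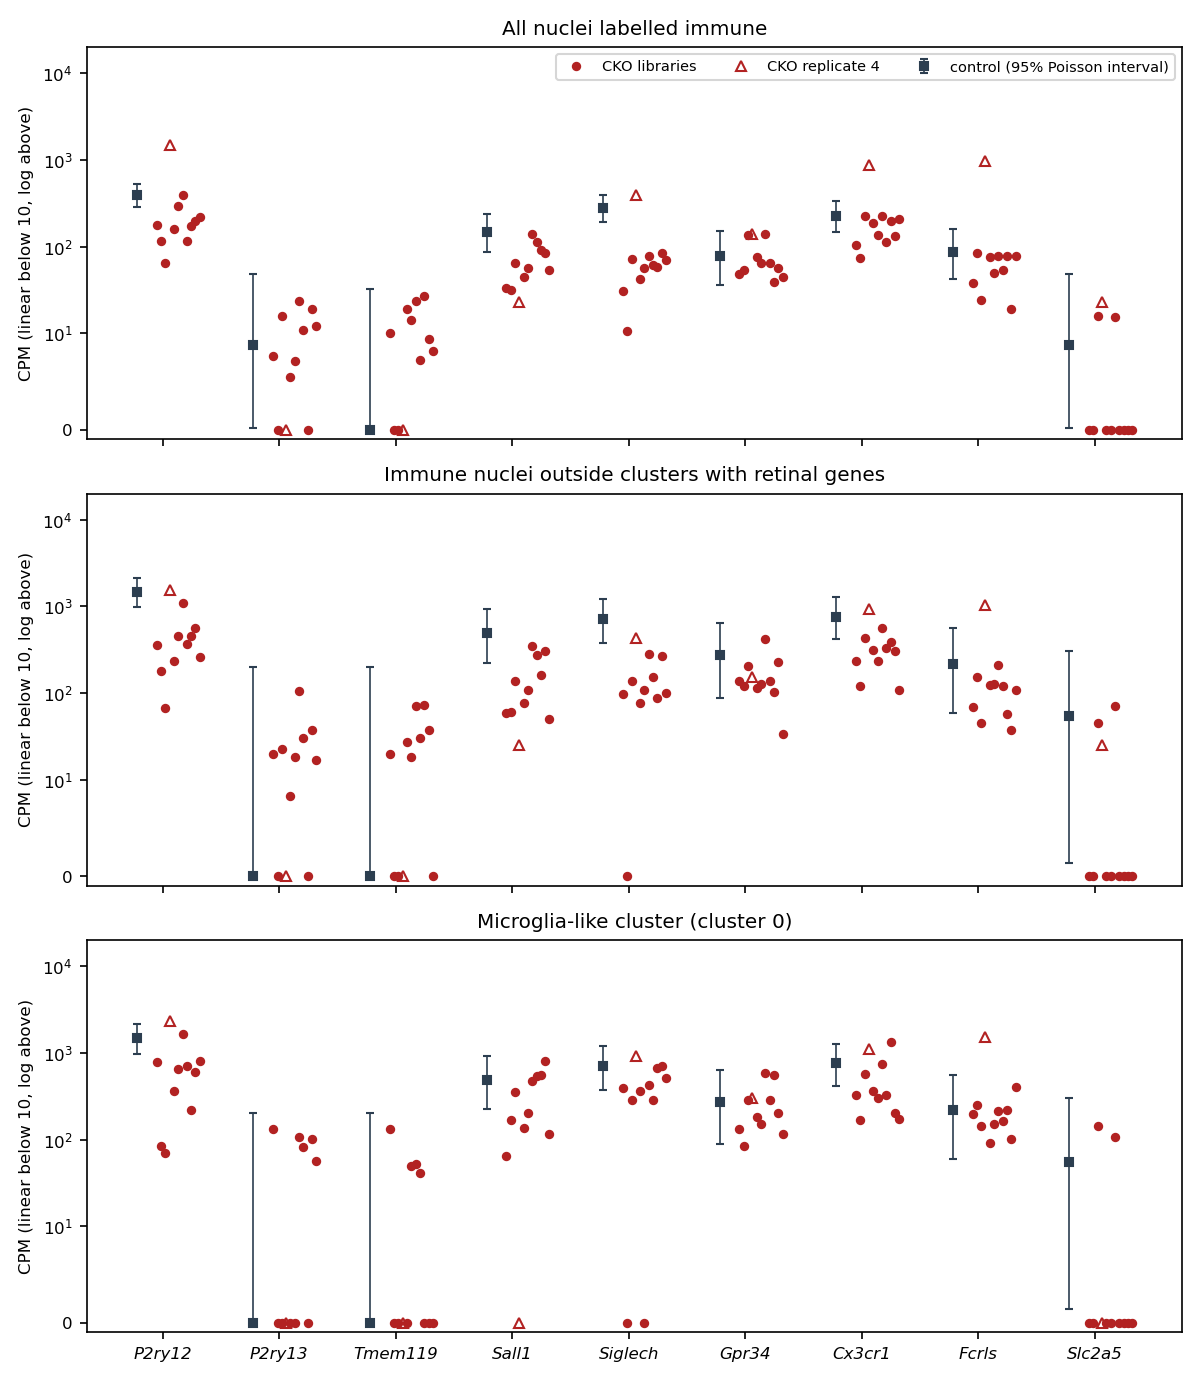
CPM of each member (axis linear below 10 and logarithmic above) in all immune-labelled retinal nuclei (top), those outside the retinal-gene clusters (middle) and the microglia-like cluster (bottom), with squares for the control and its 95% Poisson interval, dots for CKO libraries and a triangle for CKO replicate 4. In the top panel Sall1 in the control (149) lies above all 11 CKO libraries (23.2 to 140), and Siglech in the control (280) lies above 10 of 11, the exception being CKO replicate 4 (395).

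Between genotypes, no member passed the test in immune-labelled nuclei. Of the 7 tested, 4 had a negative log2 fold change (5 with Tmem119 at its bound), beside 4807 of 10225 genes (5584 with genes at 0 in the control at their bounds). Summed over the 9 members, the control had 1232 CPM (1037 to 1453), and the CKO libraries had 372 at the lowest, 617 at the median and 3927 at the highest. All CKO libraries except replicate 4 lay below the control, the highest of them at 1121 CPM. Within cluster 0 the control had 3985 CPM, with CKO replicates 4 (6211) and 7 (4354) above it and the others below. In the retinal-gene clusters the control had 707 CPM, with CKO replicate 4 (1326) above it, replicate 11 (710) level with it and the others below. Over the whole label, the separation was clearest for Siglech and Sall1 and was absent for Gpr34, P2ry13 and Slc2a5. As a share of nuclei it was present for P2ry12 and Cx3cr1. How many of all genes tested separate the groups in the same way was not counted. These orderings therefore describe the members and do not single them out. The CKO nuclei of the label include clusters with no control nuclei. Within cluster 0 the shares of P2ry12, Cx3cr1 and Siglech overlapped between the groups.

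Of the 9 members, 7 had the 30 UMIs needed for the edgeR test across 10225 genes; P2ry13 and Slc2a5 did not. At an adjusted p under 0.05, 0 of the 7 were called, and 0% of all genes tested were (percent called, 0). By unadjusted p under 0.05, 2 of the 7 passed, Siglech and Sall1, against 395 genes or 3.86% of all tested. DESeq2 called 0 genes, with 327 at an unadjusted p under 0.05. The median log2 fold change of the 7 was -0.18, or -0.44 with Tmem119 at its bound, beside 0.068 and -0.10 for all genes. Without the bound, it ran from -0.64 (without CKO replicate 4) to -0.0042 (without CKO replicate 1) leaving out each CKO library. It was 0.036 without TMM and, over 6 members, -1.36 in the batch of the control, beside 0.19 and 0.025 for all genes. With 1 control library, the exact permutation of labels over the 12 libraries could give no p below 0.0833 for a single gene.

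The purinergic receptors P2ry12 and P2ry13 sense ADP; P2ry12 steers microglial processes toward sites of injury. P2ry12 had 393 CPM in the control from 45 UMIs (287 to 526), and 64.1, 175 and 1487 CPM at the lowest, median and highest CKO. The control lay above 9 of the 11 CKO libraries; replicate 4 was far higher and replicate 7, at 397 CPM, was level with it. The fitted log2 fold change was -0.44 (adjusted p 0.993) and -1.03 without CKO replicate 4.

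As a share, P2ry12 was seen in 75.9% of control nuclei (56.5 to 89.7) and in 20.0% to 59.4% of CKO nuclei, with a median of 44.1%. All 11 CKO libraries were below the control on this measure, replicate 4 included. Within cluster 0 the share was 85.7% in the control (14 nuclei) and 100% in CKO replicate 11 (3 nuclei), with the other CKO libraries lower. P2ry13 was sparse, with 1 UMI in the control and 0 to 23.3 CPM in the CKO libraries, 3 of them at 0. The groups overlapped, and no fold is given for P2ry13.

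Outside the retinal-gene clusters, where the control kept 14 nuclei, P2ry12 had 1474 CPM in the control and 68.1, 366 and 1554 CPM at the lowest, median and highest CKO. Without replicate 4 the highest CKO library had 1093 CPM, so the control lay above 10 of 11. All control nuclei of this set lie in cluster 0 and most CKO nuclei in other clusters, so the groups differ in makeup; within cluster 0, 9 of 11 CKO libraries were lower. The log2 fold change outside the retinal-gene clusters was -1.36 (adjusted p 0.745). Within the batch of the control it was -2.77 with an adjusted p of 0.0718, the lowest of a range up to 0.903 over the settings tried.

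Sall1 encodes a zinc finger transcription factor that holds microglia in their resting program. It had 149 CPM in the control from 17 UMIs (86.5 to 238), and 23.2, 57.1 and 140 CPM at the lowest (replicate 4; the next had 31.9), median and highest CKO. The control lay above all 11 CKO libraries, although the interval of the highest, replicate 7, reached from 83.0 to 221 and spanned the control. Sall1 was seen in 44.8% of control nuclei and in 1.54% to 52.9% of CKO nuclei, with 10 of 11 libraries below the control.

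The log2 fold change of Sall1 was -1.51 in edgeR (unadjusted p 0.0390, adjusted p 0.993) and -1.47 in DESeq2 (standard error 0.773). Outside the retinal-gene clusters the control had 491 CPM and the CKO libraries 25.5, 109 and 353 CPM, again with all 11 below, though within cluster 0, which holds all control nuclei of this set, 3 of 11 exceeded the control. Outside the retinal-gene clusters the log2 fold change was -2.10 (unadjusted p 0.0306, adjusted p 0.745). CKO replicate 4, which was highest for P2ry12 and for each of 3 surface receptors, was the lowest library for Sall1 in both sets of nuclei.

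Siglech separated the groups most among the surface receptors. It had 280 CPM in the control from 32 UMIs (191 to 395), and 10.6, 61.1 and 395 CPM at the lowest, median and highest CKO. Replicate 4 was the only CKO library above the control, and without it the highest was 84.8 CPM, less than the lower bound of the control. Of the 32 control UMIs, 19 lay in the retinal-gene clusters, where the control had 198 CPM and the CKO libraries 0 to 47.2 CPM. By share, Siglech was in 58.6% of control nuclei and in 2.56% to 35.3% of CKO nuclei, all 11 lower. Within cluster 0 the share was 57.1% in the control, with CKO replicates 10 (100%) and 11 (66.7%) above it and the others below.

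The log2 fold change of Siglech was -2.13 in edgeR (unadjusted p 0.0104, adjusted p 0.993) and -1.96 in DESeq2 (standard error 0.977). Without CKO replicate 4 it was -2.64, with an unadjusted p of 5.17e-05 and an adjusted p of 0.262, the lowest of a range up to 0.999 over the settings. Within the batch of the control it was -2.97 (adjusted p 0.324). Outside the retinal-gene clusters the control had 710 CPM and all 11 CKO libraries were lower, at 0, 109 and 433 CPM (282 without replicate 4), with a log2 fold change of -2.14 (adjusted p 0.745); within cluster 0, 9 of 11 were lower.

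Cx3cr1 had 227 CPM in the control (148 to 333) and 74.4, 187 and 883 CPM at the lowest, median and highest CKO. It was lower than the control in 10 of 11 libraries, by little in several: the highest apart from replicate 4 had 226 CPM. As a share it was in 58.6% of control nuclei and 15.4% to 53.3% of CKO nuclei, all 11 lower. Within cluster 0 the groups overlapped. The share there was 64.3% in the control and 75.0%, 100% and 100% in CKO replicates 3, 9 and 11, with the other libraries lower. The level there was 764 CPM in the control, with CKO replicates 4 (1120) and 9 (1331) above it and the others below. The log2 fold change was -0.18 (adjusted p 0.993), -0.57 without replicate 4 and 0.036 without TMM scaling.

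Fcrls had 87.4 CPM in the control from 10 UMIs (41.9 to 161) and 18.9, 75.8 and 976 CPM in the CKO libraries. Replicate 4 held the highest value, and the other 10 lay below the control, up to 85.02 CPM. The fitted log2 fold change turned with that library, from 0.40 with it to -0.64 without it. Gpr34 had 78.6 CPM in the control (36.0 to 149) and 38.5, 64.2 and 140 CPM in the CKO libraries, 8 of them lower. Its groups overlapped, and its log2 fold change was 0.027 (adjusted p 1.00), turning to -0.11 without CKO replicate 3 or without CKO replicate 7.

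Tmem119, a transmembrane protein used as a microglial marker in tissue sections, had 0 UMIs in the control label, which allows up to 26.2 CPM at 3 counts. The CKO libraries had 0, 9.43 and 27.0 CPM, 8 above 0 and 3 at 0. Only the highest exceeded what the control count allows, so a difference in Tmem119 was not detectable at this depth. Slc2a5 had 1 UMI in the control and was at 0 in 8 CKO libraries, with a highest level of 23.2 CPM in replicate 4. The levels of Slc2a5 gave no ordering of the groups.

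Other gene groups under the label were set beside the members; no gene in any list was called. Of 23 other microglia genes tested, 14 had a negative log2 fold change, with a median of -0.35, and their summed level was 5984 CPM in the control and 4864 CPM in the pooled CKO. Counts of negative genes in these lists stand beside 4807 of the 10225 genes tested, or 5584 at bounds. The microglial transcription factors other than Sall1, led by Mef2a, had 4 of 9 negative and a median of 0.027 (2874 and 2708 CPM). The TGF-beta pathway genes, led by Tgfbr1, had 7 of 12 negative and a median of -0.37 (1974 and 1806 CPM). The pan-immune genes, led by Dock2, had 3 of 12 negative and a median of 0.45, or 0.30 with the gene at 0 in the control at its bound.

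Lists of other immune states had many genes at 0 in the control. Of the activated microglia genes, 9 of 19 were at 0 in the control, and the list summed to 367 CPM against 1543 CPM in the CKO, led by Igf1. Macrophage genes had 9 of 12 at 0 in the control, Ms4a7 and F13a1 included, and summed to 96.1 against 641 CPM, led by Stab1. Monocyte genes were all at 0 in the control and summed to 267 CPM in the CKO, led by Ccr2. With genes at 0 in the control set to their bounds, the median log2 fold changes of these lists were 1.19, 1.99 and 0.69, in that order.

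Dendritic cell genes, led by Wdfy4, summed to 114 CPM in control and 277 CPM in CKO nuclei (median at bound -0.10), and T cell genes to 17.5 and 105 CPM (1.03). B cell genes, led by Ebf1, which is also expressed outside B cells, summed to 218 and 295 CPM (-0.60), with Pax5 among the genes at 0 in the control. NK cell genes summed to 8.74 and 21.9 CPM and platelet genes to 0 and 7.84 CPM, with no gene tested in either list. The 1 neutrophil gene tested, Csf3r, had a log2 fold change of -0.17. Cell cycle genes, led by Top2a, summed to 43.7 and 223 CPM (0.83).

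Among genes of retinal and vascular cells, the largest gap was in the bipolar list, led by Prkca, with 7 of 8 negative and a median log2 fold change of -1.64. Rod genes had a median of -0.22, the neuron list -0.51 (-0.64 at bound), Mueller glia genes 0.29 and astrocyte genes 0.15. Amacrine genes had a median of 0.10, or -0.29 with the gene at 0 in the control at its bound. Endothelial genes were at -0.19 at bound, and the single pericyte and oligodendrocyte genes tested at -0.022 and 0.48. The part of these other cell types in the members' levels was not tested.

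Outside the retinal-gene clusters, an alternative chosen after the data were seen, the other microglia genes had 20 of 22 negative with a median of -0.68, and the transcription factors 8 of 9 with -0.65, beside 2118 of all 6084 genes, or 4097 at bounds. The median of the 6 members tested was -1.11, beside 0.59 for the 6084 genes tested, or -0.58 with genes at 0 in the control at their bounds. At an adjusted p under 0.05 edgeR called 0 genes (251 at an unadjusted p under 0.05) and DESeq2 called 0 (164).

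**Figure D2:**
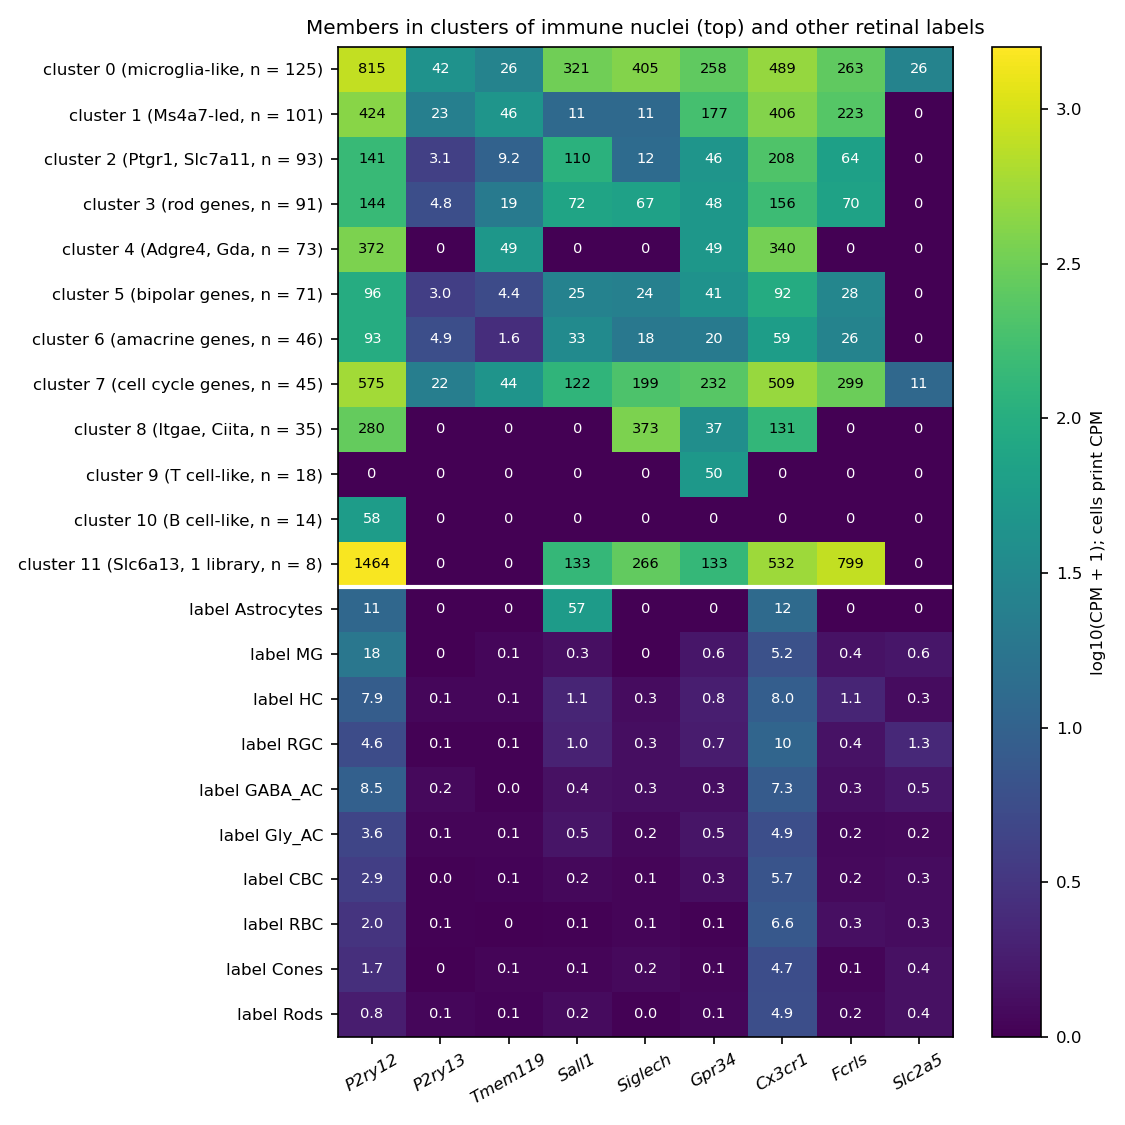
CPM of each member, printed in each cell and coloured as log10 of CPM plus 1, in the clusters of the 720 immune-labelled retinal nuclei (top) and in the other retinal labels (bottom). As a ratio, and among members with UMIs in both, the microglia-like cluster 0 and cluster 1, led by Ms4a7, differ most for Sall1 (321 and 11.4 CPM) and Siglech (405 and 11.4 CPM).

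The members did not all follow the same clusters. Cluster 0 (125 nuclei from all 12 libraries) had a summed member level of 2644 CPM. Cluster 1 (101 nuclei from 9 CKO libraries) was led by Ms4a7, a macrophage gene, and had 1322 CPM. Cluster 7 (45 nuclei), with Kif11 and other mitotic genes in the lead, had 2012 CPM, and cluster 11 (8 nuclei, all from CKO replicate 4) had 3328 CPM. T cell and B cell clusters had 49.8 and 58.1 CPM.

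Sall1 and Siglech parted clusters 0 and 1. Sall1 had 61 UMIs (321 CPM) in cluster 0, beside 2 UMIs (11.4 CPM) in cluster 1, a ratio of 28.0 (7.43 to 237), higher in cluster 0 in 9 of 9 libraries with both. Siglech had 77 and 2 UMIs, 405 and 11.4 CPM, a ratio of 35.4 (9.46 to 297), higher in 7 of 9 libraries. P2ry12 had 815 and 424 CPM, a ratio of 1.92 (1.45 to 2.57), and was higher in cluster 0 in 5 of 9 libraries. The control and CKO replicates 4 and 7 have no nuclei in cluster 1. In the 9 libraries with both clusters, an alternative chosen after the data were seen, the ratio was 26.2 (6.83 to 223) for Sall1 and 28.7 (7.505 to 244) for Siglech, but 1.22 (0.872 to 1.71) for P2ry12, so its interval above 1 rests on libraries without cluster 1.

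The remaining receptors had no clear order between the same clusters. Gpr34 had 258 and 177 CPM, a ratio of 1.45 (0.907 to 2.36). Cx3cr1 had 489 and 406 CPM, a ratio of 1.203 (0.874 to 1.66). Fcrls had 263 and 223 CPM, a ratio of 1.18 (0.759 to 1.84). The intervals of all 3 receptors include a ratio of 1. In the 9 libraries with both clusters the ratios were 1.18 (0.690 to 2.02) for Gpr34, 0.928 (0.639 to 1.34) for Cx3cr1 and 0.844 (0.497 to 1.41) for Fcrls, the last 2 in the other direction. Ms4a7 and Apoe, picked after their values were seen, set the clusters apart: Ms4a7 had 0 UMIs in cluster 0 and 858 CPM in cluster 1, and Apoe, a lipid carrier raised in activated microglia and macrophages, had 173 and 1499 CPM.

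The other clusters split the same genes in further ways. Cluster 4 (73 nuclei), where 7 monocyte and 7 other microglia genes were raised, had P2ry12 at 372 CPM and Cx3cr1 at 340 CPM but 0 UMIs of Sall1, Siglech and Fcrls. Cluster 7 had P2ry12 at 575 CPM, Sall1 at 122 CPM and Siglech at 199 CPM. Cluster 8 (35 nuclei), where 7 other microglia and 6 dendritic cell genes were raised, had Siglech at 373 CPM. Cluster 2 (93 nuclei), which no marker list named, had Sall1 at 110 CPM and Siglech at 12.3 CPM.

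Within cluster 0 the genotype comparison rests on few UMIs, 18320 in the control and 9018 to 24121 in the CKO libraries. Sall1 had 491 CPM in the control and 0 (replicate 4; the next 65.6), 201 and 813 CPM in the CKO libraries, 8 of 11 lower. Siglech had 710 CPM and 0, 394 and 916 CPM (711 without replicate 4), 9 of 11 lower. P2ry12 had 1474 CPM and 71.0, 653 and 2342 CPM (1646 without replicate 4), 9 of 11 lower. For all 3 genes the groups overlapped.

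In edgeR on the clusters that met the marker-count rule (0, 1, 7, 8 and 11, with control nuclei in cluster 0 only), 0 of 6 members tested were called at an adjusted p under 0.05, as were 0% of 3847 genes (186, or 4.83%, at an unadjusted p under 0.05; DESeq2 0 called and 95). Siglech had a log2 fold change of -1.68 (unadjusted p 0.0424), Sall1 -2.02, P2ry12 -1.13, Cx3cr1 -0.68, Gpr34 -0.22 and Fcrls 0.51, the last of which was -0.41 without CKO replicate 4. The median of the 6 was -0.91, beside 0.34 for all genes, or -0.17 with genes at 0 in the control at their bounds. The members' median was -1.37 without CKO replicate 4, -0.21 at Leiden resolution 2 and, over 8 members, -0.29 with genes of at least 10 UMIs. All genes had 0.30, 0.20 and 0.87 in these settings. In cluster 0 alone, a choice made after the data were seen, Siglech and Sall1 were both at -1.32 and the members' median was -0.93 beside 0.041 for all 1524 genes, with 0 called by edgeR (60 at an unadjusted p under 0.05) and 0 by DESeq2 (40).

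Members were also counted together in single nuclei. At least 1 member had a UMI in 29 of 29 control immune-labelled nuclei (100%, lower bound 88.1) and in 46.2% to 86.8% of CKO nuclei, with a median of 66.2%. At least 3 members were seen in 22 of 29 control nuclei (75.9%) and in 155 of 691 CKO nuclei (22.4%). These are pooled nuclei without a test, and the CKO nuclei include clusters with no control nuclei, the T cell and B cell clusters among them. Median depth under the label was 2892 UMIs in the control and 592 to 5746.5 in the CKO libraries.

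In all other retinal labels, 1.80% to 5.58% of CKO nuclei and 379 of 11484 control nuclei had at least 1 member UMI. At least 3 members were seen in 5 of 11484 control nuclei, 4 of them labelled RGC (retinal ganglion cells), and in 21 of 65472 CKO nuclei. By cluster, at least 3 members were seen in 47.2% of nuclei in cluster 0, 42.2% in cluster 7 and 19.8% in cluster 1, and in 41.3%, 26.8% and 24.2% in the retinal-gene clusters 6, 5 and 3, whose nuclei are deeper. With each nucleus of at least 500 UMIs thinned to 500, the share with at least 1 member under the label was 58.9% in the control and 20.3%, 34.7% and 63.0% at the lowest, median and highest CKO, so the groups overlapped (the highest is replicate 4, the next replicate 7 at 52.3%), against 0.262% to 1.07% in the other labels.

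Over whole retina libraries the members were rare, and CKO replicate 4 was again far from the rest. Summed, the control had 20.1 CPM and the CKO libraries had 11.4, 19.5 and 1891 CPM, the highest without replicate 4 being 21.4. P2ry12 had 8.94 CPM in the control (7.92 to 10.1) and 3.93, 5.98 and 730 CPM in the CKO libraries. Every CKO library except replicate 4 was below the control for P2ry12, with a highest level of 7.17 CPM. Siglech had 1.42 CPM in the control and 0.251, 0.669 and 188 CPM, with 10 of 11 libraries below, up to 1.09 CPM.

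Some members went the other way in whole libraries. Slc2a5 had 0.226 CPM in the control and 0.251, 0.476 and 11.1 CPM in the CKO libraries, all 11 above it (0.791 the highest without replicate 4). Tmem119 had 0 UMIs in the control, which allows 0.0968 CPM, and was above 0 in 9 CKO libraries, up to 0.312 CPM. Sall1 had 0.936 CPM in the control and 0.418, 1.17 and 11.1 CPM (2.44 without replicate 4), and Fcrls had 0.549 CPM and 0.243, 1.04 and 464 CPM (1.29 without it), with groups that overlapped. The immune label held 0.252% of control nuclei and 0.5003% to 62.5% of CKO nuclei, 1.21% at most without replicate 4.

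All 9 members were tested in whole libraries, and edgeR called 0 at an adjusted p under 0.05, as it did for 0% of 23105 genes (344, or 1.49%, at an unadjusted p under 0.05). DESeq2 called 421 genes, 2 lower and 419 higher, with 725 at an unadjusted p under 0.05 and no member among those called. The members' median log2 fold change was 1.05, beside -0.026 for all genes. It was 0.64 without CKO replicate 4, 0.52 without CKO replicates 4 and 5 and, over 7 members, 0.18 in the batch of the control. All genes had 0.0038, 0.0058 and 0.0096 in these settings. Without CKO replicate 4, P2ry12 went from 2.19 to -0.59, Siglech from 0.090 to -1.10, Cx3cr1 from 1.60 to 0.023 and Fcrls from 4.86 to 0.64, so their direction or size rests on that library; DESeq2 gave -0.59 for P2ry12 with all libraries. The adjusted p of each member was 1.00 in every setting.

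**Figure D3:**
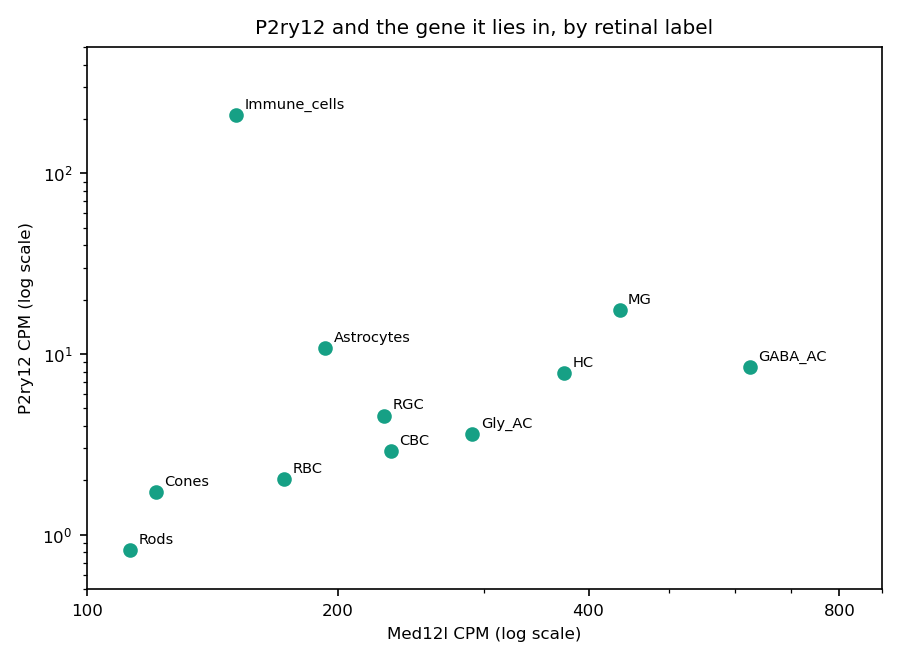
P2ry12 against Med12l, the gene it lies within, in CPM (both axes logarithmic), 1 point per retinal label over all libraries. Mueller glia have 17.5 CPM of P2ry12 and 436 of Med12l, while immune-labelled nuclei have 209.7 and 151 CPM.

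Outside the immune label, P2ry12 differed between retinal cell types by more than counting error. It was highest in Mueller glia (label MG) at 17.5 CPM (15.4 to 19.8), then astrocytes at 10.7 (5.36 to 19.2), GABAergic amacrine cells at 8.51 (7.66 to 9.44) and horizontal cells at 7.87 (5.95 to 10.2). Ganglion cells had 4.56 CPM, glycinergic amacrine cells 3.60, cone bipolar cells 2.89, rod bipolar cells 2.04, cones 1.72 and rods 0.821. Each label overlapped its neighbour in this order in interval, except horizontal cells and ganglion cells.

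P2ry12 and P2ry13 lie on the opposite strand inside Med12l, a Mediator subunit gene expressed in neurons. Med12l had 436 CPM in Mueller glia, 625 in GABAergic amacrine cells, 113 in rods and 151 in immune-labelled nuclei. Per 1000 UMIs of Med12l, P2ry12 had 40.2 in Mueller glia, 13.6 in GABAergic amacrine cells, 7.29 in rods and 1387 in immune-labelled nuclei. Across the 10 other retinal labels Pearson's r between the log2 levels of both genes was 0.774, and across 20 other brain labels it was -0.0162; labels share libraries and differ in depth, and no p is given. For Gpr34 and Cask, the gene that overlaps it, r was 0.399 and -0.467.

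The other members had their own patterns. Sall1 had 56.6 CPM in astrocytes from 58 UMIs (43.0 to 73.2), close to the 66.8 CPM of immune-labelled nuclei (57.3 to 77.3), and 1.12 CPM or less in every further retinal label. Cx3cr1 was spread over the other retinal labels at 4.65 to 11.7 CPM, beside 177 CPM in immune-labelled nuclei. Slc2a5 had 1.31 CPM in ganglion cells (0.847 to 1.93), within the interval of the immune label (2.25 CPM, 0.826 to 4.90). Siglech, P2ry13 and Tmem119 were at most 0.314, 0.190 and 0.141 CPM in the other retinal labels.

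Over all nuclei without the immune label, P2ry12 had 7.51 CPM in the control and 2.75, 4.07 and 42.2 CPM at the lowest, median and highest CKO. Apart from replicate 4, every CKO library lay below the control, up to 5.34 CPM. The 9 members summed to 15.6 CPM in the control and 8.59, 11.9 and 42.2 CPM in the CKO libraries, with 10 of 11 lower. Within cell types, P2ry12 in GABAergic amacrine cells had 15.5 CPM in the control and 4.29, 6.41 and 13.01 CPM over 10 CKO libraries with enough UMIs of the label, all lower. In glycinergic amacrine cells it had 7.92 CPM in the control and 1.97, 2.51 and 5.26 CPM in the CKO libraries, again without overlap. In Mueller glia it had 21.8 CPM and 11.2, 17.5 and 23.9 CPM, and the groups overlapped. Levels by library in the remaining retinal labels are not given here. How many genes lack overlap in the same labels was not counted. The orderings in amacrine cells are therefore a description, and a loss of P2ry12 there was not tested. Of all P2ry12 UMIs in the retina, 1119 were in nuclei without the immune label and 559 under the immune label.

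In brain nuclei labelled microglia, most members, like many other genes, were lower in the CKO than in the control, on a thin base. The control had 129 labelled nuclei among 16649 and the CKO 11 among 14675, with 15 member UMIs in the latter. Summed, the members had 4905 CPM in the control against 1025 CPM in the CKO, a ratio of 0.209 (0.116 to 0.349). With 1 library per genotype the ratio has no test, and its interval covers counting error only.

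**Figure D4:**
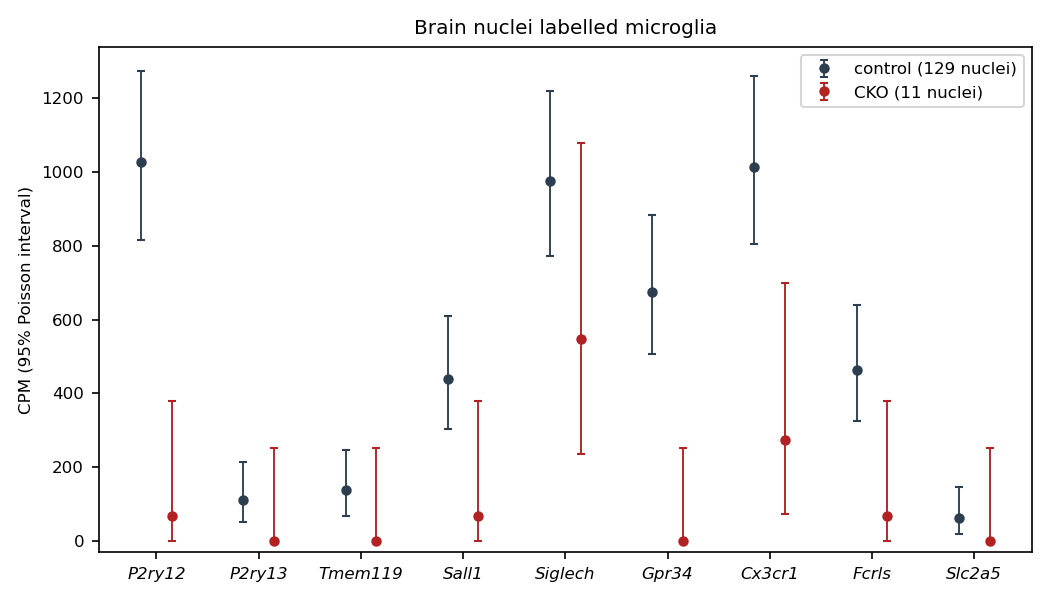
Member levels in CPM in brain nuclei labelled microglia, control and CKO, with 95% Poisson intervals. P2ry12 lies at 1026 CPM in the control against 68.3 in the CKO, while Siglech, at 976 and 547 CPM, has overlapping intervals.

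P2ry12 had 82 UMIs (1026 CPM) in the control against 1 UMI (68.3 CPM) in the CKO, a ratio of 0.0666 (0.00167 to 0.382). Cx3cr1 had 81 and 4 UMIs, 1013 and 273 CPM, a ratio of 0.270 (0.0717 to 0.717). Sall1 had 35 UMIs and 1 UMI, 438 and 68.3 CPM, a ratio of 0.156 (0.00384 to 0.928). These 3 genes were lower in the CKO with intervals below 1, as was Fcrls (463 and 68.3 CPM, 0.148, 0.00364 to 0.875). Of all 989 genes tested, 355 (35.9%) had an interval below 1.

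Gpr34 had 54 UMIs, or 676 CPM, in the control against 0 in the CKO, with an interval of the ratio from 0 to 0.386. Siglech was the exception, with 78 and 8 UMIs, 976 and 547 CPM, and a ratio of 0.560 (0.234 to 1.16) whose interval includes 1. With TMM factors its ratio was 0.251 (0.105 to 0.520), and in nuclei chosen by UMIs of at least 2 other microglia genes 0.390 (0.250 to 0.590), both below 1. Of all genes tested, 618 of 989 (62.5%) had an interval below 1 with TMM factors. In the chosen nuclei 5275 of 17149 (30.8%) did. The chosen set holds 4014 control and 3132 CKO nuclei, with Siglech at 8.26 and 3.22 CPM, so its ratios are not levels of labelled microglia. The part of the number of microglia in these ratios was not tested. P2ry13, Tmem119 and Slc2a5 had 9, 11 and 5 control UMIs, and the CKO had 0 of each. The intervals of their ratios included 1; for Tmem119 the interval was below 1 with TMM factors (0 to 0.976) and in nuclei chosen by UMIs of at least 2 other microglia genes (0.297, 0.146 to 0.556).

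Of the 6 members with at least 20 UMIs, 5 had a ratio below 0.5, beside 515 of 989 genes tested (percent called, 52.1), or 431 (43.6%) with genes at 0 at their bounds. Their median ratio was 0.152, or 0.213 at bounds, beside 0.455 and 0.575 for all genes. Other microglia genes, led by Mertk, had 19 of 20 below 0.5 (15 at bounds) with a median of 0.182 (0.336 at bounds), and pan-immune genes 5 of 5 with 0.273. In nuclei of at least 1000 UMIs (11 control and 5 CKO) no single member reached 20 UMIs. There P2ry12 had a ratio of 0.192 from 13 UMIs in all, Fcrls 0.329 from 8, Cx3cr1 0.921 from 7, Sall1 1.15 from 3 and Siglech 1.54 from 10, Gpr34 had 7 control UMIs and no CKO UMI, and the summed members had 0.518 (0.221 to 1.08). In nuclei chosen by UMIs of at least 2 other microglia genes instead of the label, 4014 in the control and 3132 in the CKO, 3 of 8 members tested were below 0.5 with a median of 0.522, beside 2121 of 17149 genes and 0.992. Among labelled nuclei, the transcription factors were 6 of 6 below 0.5 with a median of 0.221, and the TGF-beta pathway genes 4 of 4.

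The other marker lists show how the 2 sets of labelled nuclei differed in makeup. Macrophage genes summed to 14701 CPM in the control, led by F13a1 at 5906 CPM, against 820 CPM in the CKO, with 9 of 9 tested below 0.5 (6 at bounds). Neuron genes summed to 1038 CPM in the control against 4714 CPM in the CKO, with 4 of 4 tested above 2, beside 188 of all 989 genes (19.0%), and astrocyte genes to 288 and 2460 CPM. Endothelial genes summed to 475 CPM in the control, and the CKO had 0 UMIs of them. Whether neuronal RNA lowered the members' levels in the CKO nuclei was not tested.

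By share, at least 1 member was seen in 83.7% of the 129 control nuclei (median depth 402 UMIs) and in 63.6% of the 11 CKO nuclei (548 UMIs). Over all other brain labels it was 4.73% (control) and 3.31% (CKO). Of the brain UMIs of the members, 407 of 2122 (19.2%) lay under the microglia label: 52.4% for Siglech, 37.2% for Gpr34, 34.6% for P2ry13, 24.0% for P2ry12 and 5.54% for Sall1. In the retina and in the brain alike, Siglech had the largest share under the immune or microglia label.

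The remaining brain UMIs followed cell types. Sall1 had 70.2 CPM in oligodendrocytes, 45.8 in pericytes from 6 UMIs and 37.5 under the label CP_6. Tmem119 had 19.7 CPM in nuclei labelled glia (44 UMIs) and 7.76 in vascular smooth muscle cells. Fcrls had 10.5 CPM in vascular smooth muscle cells and 6.24 in endothelial nuclei. The label Glut_20 held Cx3cr1 at 19.9 CPM, Gpr34 at 17.0 and P2ry12 at 15.6. Gpr34 was at most 1.01 CPM in the other Glut labels, and whether the Glut_20 nuclei are glutamatergic neurons was not tested. These labels are the authors' and were not tested against each other.

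Over whole brain libraries the members summed to 29.9 CPM in the control against 20.4 in the CKO, and outside the microglia label to 22.1 and 19.9 CPM. Tmem119 outside the label had 1.35 and 0.516 CPM, a ratio of 0.383 (0.207 to 0.668). The other members ran from 0.641 for Gpr34 to 1.42 for P2ry13, with intervals that include 1. These intervals cover counting error only, between 1 library of each genotype. The share of all genes with an interval below 1 outside the label is not given, so Tmem119 is not singled out.

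Across 22 points, the 12 clusters of immune-labelled nuclei and the 10 other retinal labels, genes whose log2 levels were among the 10 that followed the summed members most closely, of 5482, include Anxa3 (r 0.965), Tbxas1 (0.964), Lair1 (0.960), Rbm47 (0.959), Csf1r (0.957), Adap2 (0.956), Lacc1 (0.956), Cyfip1 (0.955) and Naip5 (0.954). Csf1r is the receptor on which microglia depend for survival. The points share libraries and the immune clusters stand apart from the other labels, so no p is given. Between members, P2ry12 and Cx3cr1 were closest (0.947) and Tmem119 and Siglech least alike (0.367).

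In GENCODE vM39 on GRCm39, P2ry12 lies at chr3:59123682-59170429 and P2ry13 at chr3:59114539-59118304, both on the minus strand inside Med12l. Gpr34 lies at chrX:13489625-13507116 on the plus strand and overlaps Cask on the minus strand. Sall1 is at chr8:89753863-89770823 (minus), Siglech at chr7:55417926-55429195 (plus), Cx3cr1 at chr9:119877749-119898945 (minus), Tmem119 at chr5:113931781-113938577 (minus) and Slc2a5 at chr4:150196268-150228931 (plus), overlapping the noncoding gene Gm13093 (minus), which the files also hold. Fcrls has no entry under that symbol. The submitters' notes name mm10 and the methods name GRCm39, and whether counting used the strand is not stated, so UMIs of overlapping genes cannot be told apart here.

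Promoters, 250 bases before to 50 after the start, were matched for 7 members (RefSeq, GRCm38.p6), not Tmem119 and Gpr34. They were searched on both strands for AGGAAGT, letters of the ETS motif bound by PU.1 (Spi1), the transcription factor that specifies macrophages and microglia. The letters occur in 3072 of 32851 promoters of 300 bases (9.35%), a share counted by promoter and not by gene. Counted by gene, which is not the same measure, they occur in promoters of 3 of the 7 members: P2ry12, Fcrls and 1 of 3 promoters of Sall1. These are printed because they are the members that share the letters, which stand in capitals (ACTTCCT where read on the other strand). A match is a description of the sequence, and binding was not analysed here. The P2ry12 promoter shown is at chr3:59262936-59263235 on the minus strand. The Sall1 promoter shown is at chr8:89042813-89043112 on the minus strand. The Fcrls promoter shown is at chr3:87263475-87263774 on the minus strand.
P2ry12 promoter: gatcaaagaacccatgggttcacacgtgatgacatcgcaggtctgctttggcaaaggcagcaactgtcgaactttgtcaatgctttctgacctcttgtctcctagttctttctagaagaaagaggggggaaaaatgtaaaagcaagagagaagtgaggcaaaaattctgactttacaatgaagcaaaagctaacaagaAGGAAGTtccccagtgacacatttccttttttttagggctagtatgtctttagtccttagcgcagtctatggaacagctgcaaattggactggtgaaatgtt
Sall1 promoter: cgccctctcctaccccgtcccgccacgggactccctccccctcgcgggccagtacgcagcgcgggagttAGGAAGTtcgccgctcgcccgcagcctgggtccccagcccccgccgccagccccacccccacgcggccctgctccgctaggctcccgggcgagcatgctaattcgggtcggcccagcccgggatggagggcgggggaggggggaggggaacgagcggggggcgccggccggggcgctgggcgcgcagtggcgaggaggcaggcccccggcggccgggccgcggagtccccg
Fcrls promoter: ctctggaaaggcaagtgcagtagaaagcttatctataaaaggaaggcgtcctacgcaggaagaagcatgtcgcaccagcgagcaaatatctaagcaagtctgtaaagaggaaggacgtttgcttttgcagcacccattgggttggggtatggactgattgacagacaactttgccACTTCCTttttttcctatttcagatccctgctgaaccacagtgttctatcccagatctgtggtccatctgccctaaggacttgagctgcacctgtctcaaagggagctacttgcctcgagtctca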

How the data were processed

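The deposited matrices hold counts (whole UMIs). The authors aligned reads with PIPseeker, removed background with CellBender and doublets with SOLO, curated nuclei by hand (for CKO replicates 4 and 5 also whole clusters) and labelled cell types. Counts were summed per library and label with Python 3.11.15, numpy 2.4.6, scipy 1.17.1 and pandas 2.3.3; the depth of each library is in the text. CPM have exact Poisson intervals, shares exact Clopper-Pearson intervals, and ratios exact conditional binomial intervals, all at 95% and for counting error only. The level that a count of 0 allows is 3 counts of the total.

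Immune-labelled nuclei were clustered without the 9 members in scanpy 1.11.5 and leidenalg 0.10.2 (2000 variable genes, 20 components, 15 neighbours, Leiden resolution 1). A cluster met the marker-count rule when at least 3 other microglia genes, and more than of any other list, were raised (2-fold over the other clusters, in 5% of nuclei). Libraries were the replicates. CKO was compared with control in R 4.3.3 by the quasi-likelihood F test of edgeR 4.0.16 on UMIs per library, with TMM factors, kit version as covariate, genes of at least 30 UMIs and Benjamini-Hochberg adjustment over all genes tested. DESeq2 1.42.0 was the alternative, beside other filters, scalings, cluster resolutions and sets of libraries. Correlations used log2 of CPM plus 10.

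The genes named are the 9 members, up to 4 genes of each of the other marker lists with the most UMIs, genes whose span overlaps a member, and genes among the 10 most like the summed members; some genes of these sets are not reported here, though list counts and sums include them. Others are named as chosen after their values were seen. The members and lists (other microglia, microglial transcription factors, TGF-beta pathway, pan immune, activated microglia, macrophage, monocyte, dendritic cell, T cell, B cell, NK cell, neutrophil, platelet, cell cycle, rod, bipolar, amacrine, Mueller glia, endothelial, pericyte, oligodendrocyte, astrocyte and neuron) were chosen with earlier results of these data known. Figures were drawn with matplotlib 3.10.9. Reads were not used here.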

Additional observations from a re-analysis of the deposited data

How the results depend on the processing

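No paired analysis was possible because no CKO library is matched to a control library. Of 410 alternative log2 fold changes of single members in the retina, 386 kept their direction and 24 reversed. No member was called under any setting, the cause was not tested for any reversal, and each reversed log2 fold change follows. Ratios in the brain and between clusters are not in this count and are given at the end of this section. In immune-labelled nuclei Fcrls went from 0.40 to -0.83 without both curated libraries and -1.04 in the batch of the control; Cx3cr1 from -0.18 to 0.036 with no TMM; and Gpr34 from 0.027 to -0.23 with no kit term, -0.17 in the batch of the control and -0.57 without the retinal-gene clusters. Leaving out each CKO library in turn gave -0.64 to 0.66 for Fcrls and -0.11 to 0.20 for Gpr34, which was negative without replicate 3 or 7. Without TMM the median of all genes moved from 0.068 to 0.19.

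In whole libraries P2ry12 went from 2.19 to -0.59 in DESeq2, -0.57 without both curated libraries and -0.64 in the batch of the control. Siglech went from 0.090 to -0.089 with no kit term, -1.04 without both curated libraries and -1.21 in the batch of the control, and Cx3cr1 from 1.60 to -0.030 and -0.15 under the last pair. Leaving out each library gave -0.59 to 2.52 for P2ry12 and -1.10 to 0.53 for Siglech. In clusters by marker count Fcrls went from 0.51 to -0.52 without both curated libraries (-0.41 to 0.71 leaving out each library), Cx3cr1 to 0.27 and Gpr34 to 0.57 at Leiden resolution 2, and Gpr34 to 0.013 with no filter beyond 1 UMI. In the sets of nuclei added after the data were seen, which that count takes only as alternatives, Fcrls also reversed without replicate 4, from 0.27 to -0.43 in cluster 0 alone and from 0.19 to -0.73 outside the retinal-gene clusters.

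The number of genes called in immune-labelled nuclei was 0, against 1 with no filter beyond 1 UMI (Neto1, lower) and 3 in the batch of the control (Neto1 lower, Lilrb4a and Hmox1 higher). In whole libraries it was 0, against 1 with no kit term (Gm17167, lower), 421 in DESeq2, 5 in the batch of the control (Gm3893 lower; Lilrb4a, Fgf2os, Hbb-bs and Hmox1 higher) and 0 to 1 leaving out each library (Gm17167, without replicate 2 or 4). In clusters by marker count it was 0 against 1 with no filter beyond 1 UMI (Arhgap15, higher), and outside the retinal-gene clusters, in the batch of the control, 5 (Nav3, Tanc2, Plxdc2 and Zfhx3 lower, Arhgap15 higher). These genes are named because they were called, after their values were seen.

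In brain microglia 5 of 6 members were below a ratio of 0.5, against 0 in nuclei of at least 1000 UMIs, where no member had enough UMIs, 3 of 8 in 4014 control and 3132 CKO nuclei chosen by at least 2 other microglia genes (2121 of 17149 genes), and 6 of 6 with TMM. In nuclei of at least 1000 UMIs Sall1 reversed to a ratio of 1.15, from 3 UMIs in all. Siglech went there from 0.560, with an interval that includes 1, to 1.54, from 10 UMIs. Siglech was 0.251 with TMM and 0.390 in nuclei chosen by at least 2 other microglia genes, with intervals below 1. Of all genes, 618 of 989 (62.5%) had an interval below 1 with TMM, and 5275 of 17149 (30.8%) in the chosen nuclei. The median ratio of all genes was 0.455, against 0.204 with TMM, and genes below 0.5 numbered 515 of 989 against 690. Thinned to 500 UMIs, which leaves out nuclei of fewer, the share of nuclei with a member went from 66.2% to 34.7% at the CKO median (20.3% to 63.0%), from 100% to 58.9% in the retina control, from 83.7% of 129 nuclei to 72.5% of 38 in the brain control (68.2% of 129 with at least 2 member UMIs) and from 63.6% of 11 to 28.9% of 6 in the brain CKO. Between clusters 0 and 1, in the libraries that hold both, Cx3cr1 reversed from a ratio of 1.203 to 0.928 and Fcrls from 1.18 to 0.844, P2ry12 went from 1.92 to 1.22, and Sall1 and Siglech stayed at 26.2 and 28.7; this alternative was chosen after the data were seen. Depth limits Tmem119, P2ry13 and Slc2a5 most, each with 0 or 1 UMI in the control label.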
